A study of Mus musculus with 6 samples.

Results

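Gastric-like ductal epithelial cells are epithelial cells from mouse pancreatic tumours that carry RNA of the mucous cells of the stomach. The selection does not tell tumour cells from other epithelial cells of the tissue. They were selected on their own RNA: of 54911 cells that passed the cell filter, 9011 were epithelial, and 3298 of these had at least 0.5% of their UMIs (unique molecular identifiers, 1 per captured RNA molecule) in 6 genes together, Gkn1, Gkn2, Gkn3, Tff1, Tff2 and Muc6. The other 5713 epithelial cells are called gastric-low below. Single-cell RNA was measured in pancreatic tumours of 6 KPC mice, in which Cre driven by Pdx1 (Pdx1-Cre) switches on engineered alleles, P53LSL.R172H/+ among them, in cells of the pancreatic lineage; every mouse of both groups carried the same alleles. The Smoothened inhibitor IPI-926, which blocks the step that carries the Hedgehog signal across the membrane, was given by gavage at 40 mg/kg daily to 3 mice, and 3 received the vehicle, hydroxypropyl-beta-cyclodextrin in water. Tumours were taken after 2 days of dosing, 2 hours after the last dose, and each gave 1 library; ages are not given in the sources used here.

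Surface or pit mucous cells of the stomach secrete the gastrokines Gkn1 and Gkn2 and the trefoil peptide Tff1, which protect and repair the mucosa, while neck and gland mucous cells secrete the trefoil peptide Tff2 and the gel-forming mucin Muc6. Normal pancreatic ducts express little of either set. Both sets appear in the metaplastic ducts and early neoplastic lesions that precede pancreatic ductal adenocarcinoma, and well-differentiated tumours of the classical type keep part of them. Pancreatic tumour cells also secrete Hedgehog ligands, which act mainly on neighbouring stromal cells.

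Of the genes that defined the cells, the gastrokine genes and the trefoil genes lie in short clusters of the mouse genome (GENCODE vM21, GRCm38). Gkn1 (ENSMUSG00000030050, chr6:87345650-87350942), Gkn2 (ENSMUSG00000030049, chr6:87373357-87379497) and Gkn3 (ENSMUSG00000030048, chr6:87383256-87388935) are neighbours. Tff1 (ENSMUSG00000024032, chr17:31161395-31165277) and Tff2 (ENSMUSG00000024028, chr17:31141049-31144282) are also neighbours, with the intestinal trefoil gene Tff3 (chr17:31125306-31129646) beside them. Muc6 (ENSMUSG00000048191, chr7:141633456-141655319) lies on the same chromosome as the pit mucin gene Muc5ac (chr7:141788972-141819231).

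The RefSeq promoter table (GRCm38.p6) held 4 of these 6 genes. Their 250 bases upstream of the RefSeq start are shown because these genes belong to the rule that chose the cells. Capitals mark GATAA, the core bound by GATA factors such as Gata4 and Gata6, on either strand (TTATC on the reverse); the motif was chosen after the sequences had been seen.
Gkn1, reverse strand, chr6:87350916-87351165: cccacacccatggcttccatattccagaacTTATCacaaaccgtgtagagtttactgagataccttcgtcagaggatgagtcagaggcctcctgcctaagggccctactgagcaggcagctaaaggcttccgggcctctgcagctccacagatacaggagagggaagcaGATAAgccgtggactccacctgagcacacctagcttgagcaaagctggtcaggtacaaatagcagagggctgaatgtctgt
Gkn2, forward strand, chr6:87373115-87373364: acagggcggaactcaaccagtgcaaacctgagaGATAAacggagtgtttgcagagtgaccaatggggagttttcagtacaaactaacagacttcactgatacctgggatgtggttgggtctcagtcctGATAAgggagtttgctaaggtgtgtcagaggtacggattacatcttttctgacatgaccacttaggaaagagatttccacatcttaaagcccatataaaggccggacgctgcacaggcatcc
Gkn3, reverse strand, chr6:87388936-87389185: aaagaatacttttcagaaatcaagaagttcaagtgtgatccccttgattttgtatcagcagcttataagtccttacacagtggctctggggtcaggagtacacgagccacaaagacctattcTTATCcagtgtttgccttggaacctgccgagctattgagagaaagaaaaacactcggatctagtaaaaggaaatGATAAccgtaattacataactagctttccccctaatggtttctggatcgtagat
Muc6, reverse strand, chr7:141655394-141655643: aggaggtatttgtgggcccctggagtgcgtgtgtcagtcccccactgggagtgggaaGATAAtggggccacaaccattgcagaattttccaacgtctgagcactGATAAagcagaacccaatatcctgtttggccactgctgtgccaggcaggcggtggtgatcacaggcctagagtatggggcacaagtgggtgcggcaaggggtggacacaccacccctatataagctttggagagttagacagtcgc
Each of the 4 held 2 matches. Among all 32851 promoters of the table, 22.6% held at least 1 match in the same window and 4.28% held at least 2. A match is a description of the letters and not a bound site.

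The libraries held 100810942 to 174929328 UMIs. Members were deeply sampled, with a median of 10093 to 42957 UMIs per cell in the 6 libraries, against 2775 to 8057 over all kept cells. Gastric-low cells were deeply sampled too, with medians of 15974 to 42110 UMIs. No barcode was shared between members of different libraries, and at most 59 barcodes were shared by any pair of whole libraries. IPI-926 1 stood apart: it held 5 members, their median mitochondrial share was 0.149% of UMIs against 4.93% to 7.52% in the other libraries, and it did not enter any fit, so that treatment was compared between 3 vehicle and 2 IPI-926 libraries. IPI-926 3 stood apart in stromal RNA, with at least 3 UMIs of fibroblast or endothelial genes in 87.8% of its members against 9.02% to 61.3% in the other 4 libraries of the fits.

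Every library had gastric-like cells, and in 5 of 6 they were a large part of the epithelial cells. The share was 42.3% in vehicle 1 (851 of 2012 epithelial cells), 40.5% in vehicle 2 (333 of 823) and 39.0% in vehicle 3 (1372 of 3519). In the IPI-926 libraries it was 0.487% (5 of 1026), 39.7% (410 of 1032) and 54.6% (327 of 599). The vehicle libraries lay close together, and the IPI-926 libraries lay below, among and above them. This order belongs to the threshold of 0.5%: over 1% of UMIs lay 30.5%, 30.7% and 30.9% of epithelial cells with vehicle and 0.292%, 26.8% and 25.9% with IPI-926, all 3 below the vehicle libraries (exact permutation p = 0.1, the smallest possible). The mean was 40.6% ± 1.66 (SD, n = 3) with vehicle and 31.6% ± 27.95 (SD, n = 3) with IPI-926, a difference of -8.98 percentage points (two-sided exact permutation test, p = 0.8, where 0.1 is the smallest that 3 against 3 can give). Without IPI-926 1 the difference turned to 6.58 percentage points (exact permutation test, p = 0.3). In shares of cells from dissociated tumours, fewer cells of a type and poorer recovery of that type cannot be told apart.

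**Figure D1:**
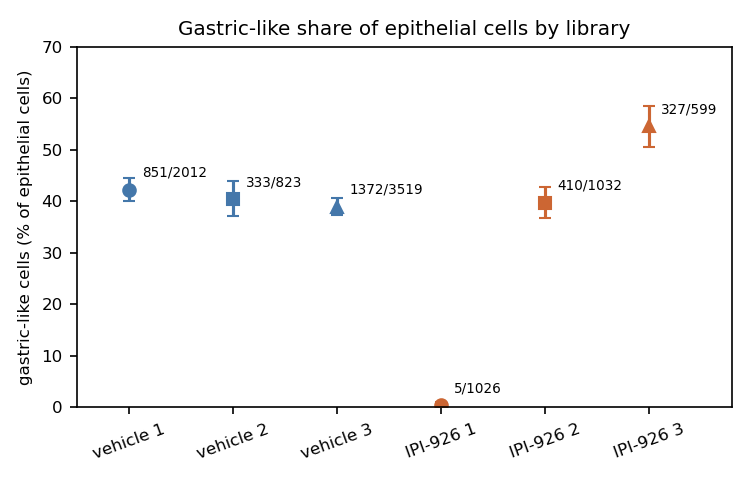
Gastric-like cells as a percentage of epithelial cells in each library, with exact (Clopper-Pearson) 95% binomial intervals that cover counting error only and the cell counts beside each point. The vehicle libraries sit between 39.0% and 42.3%, IPI-926 1 at 0.487%, IPI-926 2 at 39.7% and IPI-926 3 at 54.6%.

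The score formed a range rather than a gap. Of the 9011 epithelial cells, 4115 had under 0.1% of their UMIs in the 6 genes, 2390 had over 1%, and 2506 lay between. Near the threshold, 271 cells had 0.4% to 0.5% and 226 had 0.5% to 0.6%. The members' range ran up to a cell with 40.4% in the 6 genes, in vehicle 3. In IPI-926 1, 955 of 1026 epithelial cells had no UMI of any of the 6 genes. With vehicle these were 2 of 2012, 39 of 823 and 36 of 3519 cells, and in IPI-926 2 and 3 they were 14 of 1032 and 16 of 599. In vehicle 1, 99.8% of immune cells had such a UMI as well.

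UMIs of these abundant transcripts were also found outside the epithelial cells. Immune cells, which should lack the 6 genes, had at least 1 UMI of them in 99.8%, 71.6% and 97.3% of cells in the vehicle libraries and in 0.735%, 85.9% and 37.3% in the IPI-926 libraries. Their summed share was low, at most 0.0881% of UMIs (vehicle 1). At or above the threshold of 0.5% were 5.53%, 0.181% and 5.62% of immune cells with vehicle, and 0%, 0.0779% and 0.0408% with IPI-926. Most immune cells that carried the genes thus lay below the threshold. The parts of free RNA and of doublets in these UMIs were not tested.

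Tff2, the trefoil peptide of neck cells, was the most abundant of the 6 genes in 4 of the 5 libraries with more than 5 members. Levels are CPM, the usual depth-scaled count, of the summed members of a library; the assay counts 3′ ends, so no length enters. With vehicle Tff2 stood at 25266, 7297 and 18799 CPM, and IPI-926 2 and 3 had 15247 and 18356 CPM. Vehicle 2 was the exception, and there Tff1, the pit trefoil peptide, led with 22873 CPM and 57.0% of the score. Tff1 stood at 3091 to 8045 CPM in the other 4 libraries. Tff2 gave 58.1% to 79.7% of the score in those 4 and 18.2% in vehicle 2.

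The gastrokines varied more than the trefoil genes. Gkn1 stood at 4876 CPM in vehicle 2 and at 444 CPM in IPI-926 2. Gkn2 ranged from 3863 CPM in vehicle 2 to 25.3 CPM in IPI-926 2, and Gkn3 from 6802 CPM in vehicle 3 to 758 CPM in IPI-926 3. Muc6, the gland mucin, was much lower than the trefoil genes, at 741, 45.9 and 251 CPM with vehicle and 636 and 72.1 CPM in IPI-926 2 and 3. Epcam, the epithelial adhesion molecule, was even by comparison, with 1521 to 1562 CPM with vehicle and 2542 and 1615 CPM in IPI-926 2 and 3. All 6 labelled marker genes were thus detected in the members of every library, Epcam in 89.8% to 98.5% of members of the 5 libraries and Tff2 in 88.9% or more. Others were found in few members of some libraries: Gkn2 in 10.2% and 16.2% of IPI-926 2 and 3, Gkn1 in 20.2% of IPI-926 3, and Muc6 in 12.9% of vehicle 2 and 7.34% of IPI-926 3. The 6 genes chose the cells, so these levels are a description.

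**Figure D2:**
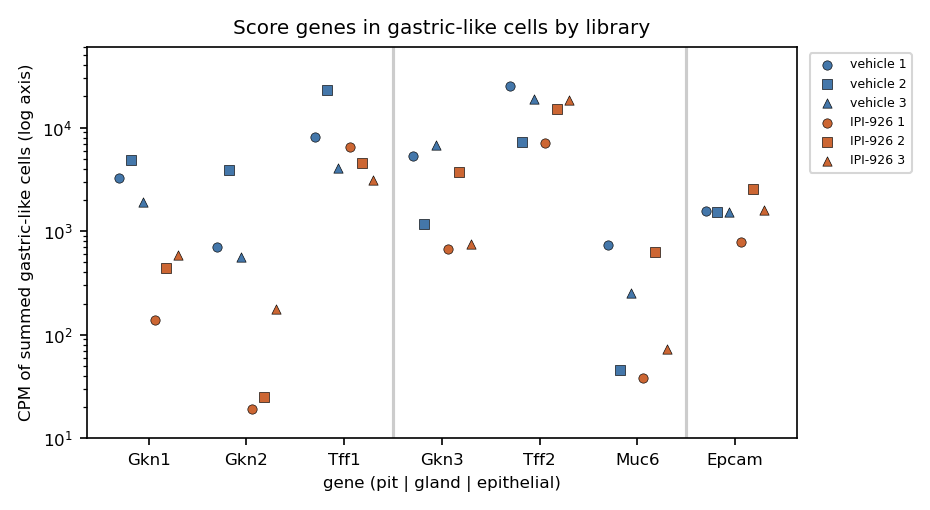
CPM (log axis) of the 6 score genes and Epcam in the summed gastric-like cells of each library, 1 point per library, with pit genes left of gland genes; IPI-926 1 rests on 5 cells. Tff1 exceeds Tff2 only in vehicle 2, and Gkn1 and Gkn2 are lower in the IPI-926 libraries than in the vehicle libraries.

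Correlations from cell to cell were higher within the pit set and within the gland pair than across the sets in vehicle 1 and vehicle 3, and not in the other 3 libraries. Across the members of a library, Spearman's rho was 0.33 to 0.84 for Gkn1 with Gkn2, 0.39 to 0.75 for Gkn1 with Tff1, and 0.40 to 0.58 for the gland pair Gkn3 and Muc6. Across the sets it ran from -0.10 to 0.18 for Tff1 with Muc6 and 0.01 to 0.31 for Tff1 with Tff2. The pair Gkn1 and Gkn3 ranged from -0.06 in vehicle 3 to 0.71 in IPI-926 3. Cells of a library share its depth and any free RNA, and these values describe the 5 libraries without a test.

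Cells in which Gkn1, Gkn2 and Tff1 together exceeded Gkn3, Tff2 and Muc6 are called pit-led, and the rest gland-led. Pit-led cells were 14.6%, 82.9% and 17.8% of members in the vehicle libraries and 12.4% and 5.81% in IPI-926 2 and 3. Vehicle 2 alone was mostly pit-led. In the 4 libraries with at least 20 cells of both kinds, 10 of 5851 genes were over 2-fold higher in pit-led cells in every library (0.171%) and 13 were over 2-fold lower (0.222%), as ratios of CPM + 5. The split used the 6 genes of the same cells, so it carries no test. Genes at or above 20 CPM on average in either kind entered, the 6 score genes excepted.

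Of 12 listed pit genes, 9 entered, and 7 of them were higher in pit-led cells in each of the 4 libraries and none was lower in each, with a median log2 ratio of 1.66. Over all 5851 genes 18.6% were higher in each library and 9.38% lower in each, with a median of 0.04. Mucl3, a mucin-like gene, stood at 299, 131 and 545 CPM in pit-led cells of the vehicle libraries and at 11.4, 6.75 and 16.8 CPM in gland-led cells, with a median log2 ratio of 3.87 over the 4 libraries. Median log2 ratios were 3.0 for Clca1, a goblet cell protein, 2.40 for Cldn18, a tight junction protein of the stomach, and 1.97 for Psca, a surface antigen of the stomach. Muc5ac, the pit mucin, had a median log2 ratio of 1.91. Anxa10 had 1.66, Sult1c2 0.70, Vsig1 0.51, Ctse 0.22 and Gcnt3 0.19, and the last 2 were higher in 3 of 4 libraries. Gsta1, Lypd8, Sprr1a, Bcas1 and AA467197 were also higher in each of the 4 libraries. Of 14 acinar genes, 12 entered, and 11 of them were lower in pit-led than in gland-led cells in each library, with a median log2 ratio of -2.65. Of 9 neck and gland genes 5 entered, and 2, Aqp5 and Dmbt1, were lower in pit-led cells in each library. Among the genes with the lowest ratios were regenerating proteins and acinar enzymes: Reg3b had a median log2 ratio of -4.01, Reg2 of -4.54, Prss2 (trypsin) of -4.39, Clps (colipase) of -3.49 and Gp2 of -2.82, and Cel, Cpa1, Pnliprp1, Try4 and Try5 were lower in pit-led cells in each library too. The trypsin genes Prss2, Try4 and Try5 are close copies, and how the authors' counting treated reads that match several of them was not checked.

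**Figure D3:**
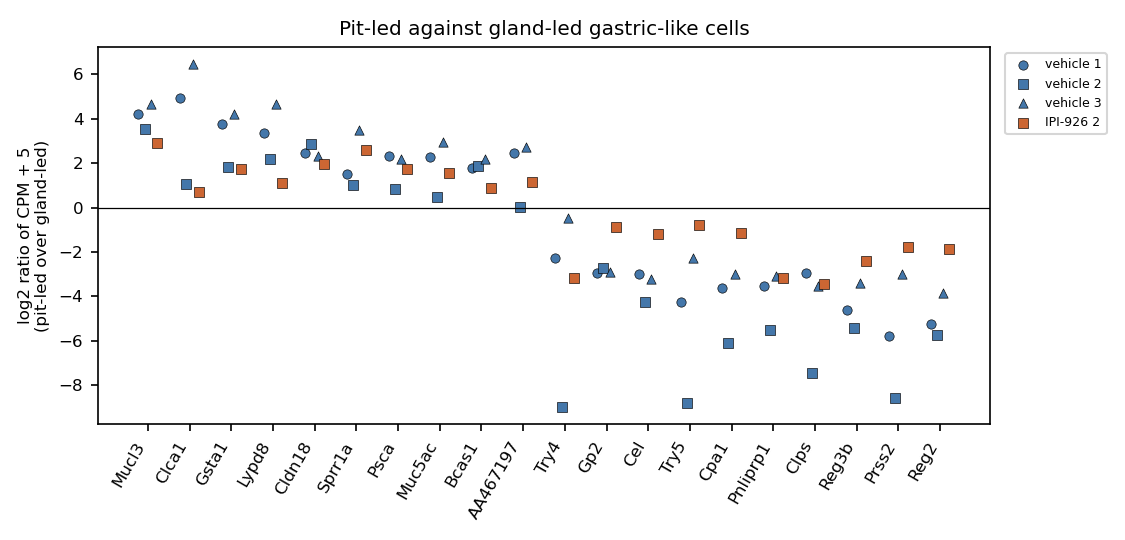
Log2 ratio of CPM + 5 between pit-led and gland-led members for the 10 genes furthest apart each way with 1 direction in every library, 1 point per library with at least 20 cells of both kinds. Mucl3 sits highest (median 3.87) and Reg2 lowest (median -4.54).

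Members differed from gastric-low cells of the same tumour in secretory genes well beyond the 6 that chose them, and carried less RNA of others such as Fn1 and Vim. The members were split from gastric-low cells on their own RNA, so the ratios below describe the split and have no test. Of 6358 genes at 20 CPM or more on average in either class, 800 were higher in members in each of the 5 libraries (12.6%) and 2326 were lower in each (36.6%), with a median log2 ratio of -0.15. Over 2-fold higher in each library were 32 (0.503%), and over 2-fold lower were 51 (0.802%). Without IPI-926 3, whose members and gastric-low cells carried most stromal RNA, 75 genes were over 2-fold higher and 107 over 2-fold lower, and leaving out cells with 3 or more stromal UMIs gave 70 and 100. The latter also drops IPI-926 3, which keeps 15 gastric-low cells, under the minimum of 20. With each cell thinned at random to 2000 UMIs, the counts fell to 22 and 39.

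Agr2, a disulfide isomerase needed to fold mucins (ENSMUSG00000020581, chr12:35992907-36004087), had the largest median ratio. It stood at 2731, 2765 and 1931 CPM in members of the vehicle libraries and at 4427 and 1437 CPM in IPI-926 2 and 3, and in gastric-low cells at 119, 140 and 66.2 CPM and at 835 and 386 CPM. Each library had more Agr2 in its members, with log2 ratios of 4.46, 4.26, 4.77, 2.40 and 1.88. At least 1 UMI of Agr2 was found in 84.8% to 93.9% of members, 38.6% to 76.4% of gastric-low cells and 2.40% to 30.5% of immune cells of these libraries.

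Other secreted and mucosal genes followed. Median log2 ratios were 4.26 for Prap1, a secreted protein of the gut lining, 3.56 for Clca1, 2.84 for Phgr1, 2.49 for Mucl3, 2.43 for the adhesion protein Vsig2 and 2.12 for its gastric relative Vsig1. Detoxifying glutathione transferases were among them, with 2.95 for Gsta1 and 1.93 for Gsta4. Gsta1 has close copies, and the treatment of reads that match several copies was not checked. The remaining named genes were 2210407C18Rik (3.21), Acsm3 (2.54), Sptssb (2.34) and Fam3b (2.06), and Muc5ac is described with the pit genes. Shh, a Hedgehog ligand, was also among the 32 genes.

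The mucosal mast cell protease gene Mcpt2 was among the 32 as well. It stood at 1020, 317 and 583 CPM in members with vehicle and at 271 and 477 CPM in IPI-926 2 and 3, against 46.7 to 117 CPM in gastric-low cells and 1.10 to 21.1 CPM in immune cells of the same libraries. Its neighbour Mcpt1, a close copy, stood at 149 to 471 CPM in members, and the treatment of reads that match both was not checked. Among other mast cell genes, Cpa3, Tpsb2, Fcer1a and Ms4a2 had 0 or 1 UMI each in the members of any library. Tpsab1 had 14, 0 and 22 UMIs with vehicle and 3 and 13 in IPI-926 2 and 3. Mcpt4 had 232, 27 and 168 UMIs with vehicle and 21 and 67 in IPI-926 2 and 3, in 2.93% to 13.4% of members. Kit, a receptor that mast cells carry among other cells, was found in 7.34% to 17.4% of members and 10.3% to 17.2% of gastric-low cells of the 5 libraries. The part of mast cell RNA was not tested. Mcpt2 was found in 62.7% to 77.7% of members of the 5 libraries. The mast cell genes were chosen after the protease values had been seen.

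The 10 genes with the lowest ratios included matrix and cytoskeletal genes (Fn1, Fbln2, Vim, Tagln and Msn) beside others. Fn1, fibronectin, stood at 140, 201 and 254 CPM in members with vehicle and at 89.8 and 321 CPM in IPI-926 2 and 3, against 1686, 1569, 1945, 715 and 892 CPM in gastric-low cells, a median log2 ratio of -2.93. Vim, the mesenchymal filament vimentin, had log2 ratios from -4.49 in vehicle 1 to -1.40 in vehicle 2. Median log2 ratios were -2.91 for Tagln, -2.90 for Ankrd1, a target of YAP, -2.87 for the oncofetal chromatin protein Hmga2, -2.62 for Inhba, an activin subunit, -2.48 for Msn and -2.45 for Prkg2. Fbln2 (-2.32) and the galectin gene Lgals1 (-2.31) completed the named genes. Fibroblast genes were also lower in members, at 211, 263 and 112 summed CPM with vehicle and 59.3 and 1072 CPM in IPI-926 2 and 3, against 1245, 540, 233, 202 and 3801 CPM in gastric-low cells. As medians over cells the classes lay close, at 57.3, 68.6, 0, 0 and 565 CPM in members and 53.8, 70.6, 0, 0 and 621 CPM in gastric-low cells. The part of fibroblast RNA in these ratios was not tested.

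**Figure D4:**
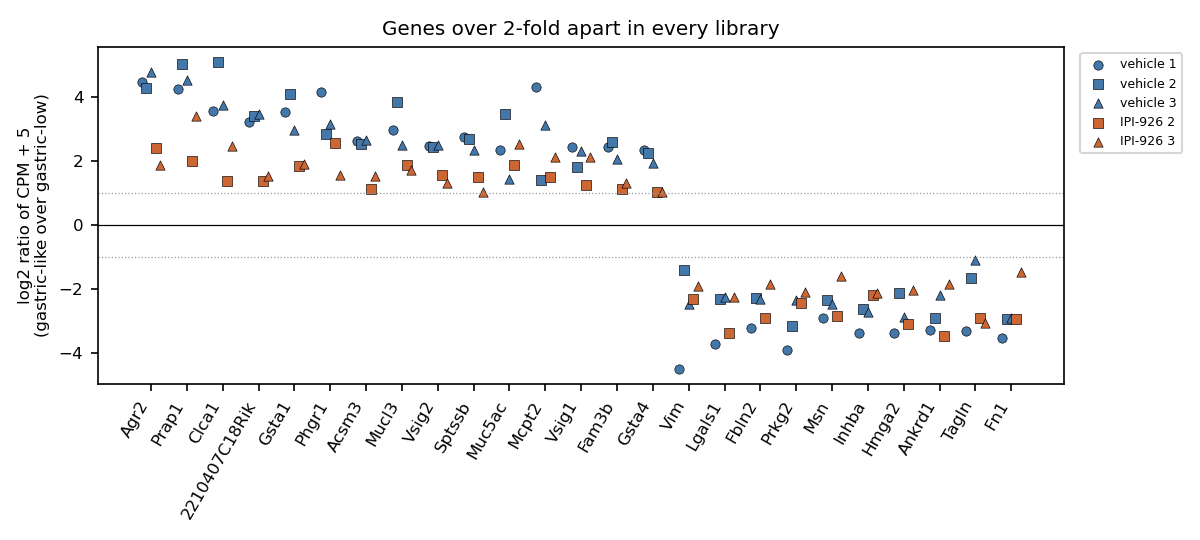
Log2 ratio of CPM + 5 between gastric-like and gastric-low cells, 1 point per library, for the 15 highest and 10 lowest genes over 2-fold apart in each of 5 libraries; dotted lines mark 2-fold. Agr2 has a median of 4.26 and Fn1 of -2.93.

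Pit and surface mucous genes outside the score were higher in members as a group. Of 12 listed, 9 reached 20 CPM, and those 9 were higher in each of the 5 libraries, against 12.6% of all genes described. Their median log2 ratio was 1.98, against -0.15 over all genes described. Muc5ac stood at 46.2, 73.2 and 12.2 CPM with vehicle and 21.5 and 37.2 CPM in IPI-926 2 and 3, against 1.39 to 5.21 CPM in gastric-low cells, and 6.71% to 18.6% of members had a UMI of it. This pit mucin was therefore far scarcer than the trefoil genes. The annexin Anxa10 (median log2 ratio 1.79), Sult1c2 (2.12), Psca (1.98), the mucin glycosyltransferase Gcnt3 (1.48), Cldn18 (1.47) and the protease cathepsin E, Ctse (1.07), made up the rest with Mucl3 and Vsig1. Capn8 had 78 UMIs in all members and Capn9 had none.

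Neck and gland genes gave a mixed picture. Of 9 listed, 6 reached 20 CPM. Of these, 3 were higher and 2 lower in each library, against 12.6% and 36.6% of all genes described. The median log2 ratio was 1.16. Aqp5, a water channel of gland cells, had a median log2 ratio of 1.81, pepsinogen C (Pgc) of 1.83 and Wfdc2 of 0.51. Dmbt1, a secreted mucosal glycoprotein, stood at 3664, 1418 and 1511 CPM with vehicle and 4085 and 9340 CPM in IPI-926 2 and 3, and in IPI-926 3 gastric-low cells had more of it (10879 CPM). Cd44 and Glipr1 were lower in members in each library, with median log2 ratios of -0.65 and -0.75. Cblif, the intrinsic factor of chief cells, had 5 UMIs in all members, and Bhlha15 had 68.

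Some genes of other stomach cells and of the intestine were at or near 0, and others were abundant. The acid pump gene Atp4b had 0 UMIs and Atp4a had 261, and the gastrin gene Gast had 0. The intestinal factor Cdx1 had 0 UMIs, Cdx2 had 70, and the intestinal mucin Muc2 had 12. Tff3, the intestinal trefoil gene, stood at 45.1, 212 and 35.4 CPM with vehicle, 64.9 CPM in IPI-926 2 and 4104 CPM in IPI-926 3, so that IPI-926 3 alone was high. Of 12 intestinal genes, 5 reached 20 CPM, 3 of them higher in members in each library, against 12.6% of all genes described. The median log2 ratio of the 5 was 1.51. Spink4, a goblet cell protein, stood at 56.3, 220 and 67.0 CPM with vehicle and at 621 and 1122 CPM in IPI-926 2 and 3. Lgals4, an intestinal galectin, was over 2-fold higher in members in each library, with a median log2 ratio of 1.80.

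Some lineage transcription factors were higher in members, led by factors of mucus-secreting cells. Of 22 listed, 16 reached 20 CPM. Of these, 7 were higher in members in each library and none was lower in each, against 12.6% and 36.6% of all genes described. The median log2 ratio was 0.34. Spdef, a factor of mucus-secreting cells, stood at 34.8, 26.7 and 18.3 CPM with vehicle and 66.1 and 13.5 CPM in IPI-926 2 and 3, against 1.67 to 21.5 CPM in gastric-low cells (median log2 ratio 1.81). Creb3l1, a factor of secretory cells, had a median of 1.72, Foxq1, which controls gastric mucin, of 1.21, and the epithelial factor Elf3 of 1.03. Klf5 had a median of 0.63, Foxa3 of 0.62 and Hnf4a, a factor of gut epithelium, of 0.47. Gata4, which patterns the stomach (0.74), and Nkx6-2 (0.39) were under 20 CPM and higher in each library as well.

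The other factors had ratios nearer 0 or a mixed direction. Median log2 ratios were 0.10 for Pdx1, the pancreatic founder factor, 0.06 for the duct factor Sox9, 0.05 for Onecut2, -0.01 for Gata6, 0.19 for Ehf, 0.30 for Klf4, 0.38 for Foxa2 and -0.25 for Foxa1. Hhex (-0.63) and Prox1 (-1.03) had the lowest medians, and Prox1, which was under 20 CPM, was lower in members of each library. Sox2, a factor of the foregut, had 0 UMIs in members.

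Genes that build and export mucins were higher in members. Of 16 listed, 13 reached 20 CPM and 11 of these were higher in members in each library, against 12.6% of all genes described. The median log2 ratio of the 13 was 1.02. Examples besides Agr2, Creb3l1 and Gcnt3 were Ern2, a stress sensor of mucous cells (2.23), the glycosyltransferase Galnt6 (1.97) and Sytl2 (1.02). Chaperones of the unfolded protein response had a median log2 ratio of only 0.04 over 14 genes, with 0.43 for Calr and -0.03 for Hspa5. Genes of the classical tumour type showed 9 of 11 genes at 20 CPM higher in each library (median 1.51), among them Tspan8 (1.12) and Prr15l (0.68). Of 7 basal-like genes at 20 CPM, 1 was higher and 2 were lower in each library (median -0.40). The shares over all genes described were 12.6% higher and 36.6% lower. Summed basal-like CPM was nonetheless higher in members of each of the 5 libraries, for example 3135 against 1959 in vehicle 1.

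The pancreatic duct genes had no common direction. The duct list had a median log2 ratio of -0.01 over 8 genes at 20 CPM, with the chloride channel Cftr at 1.80, Muc1 at 1.13, Prom1 at 0.96, the keratin Krt7 at 0.09 and osteopontin, Spp1, at -0.69. Genes of the mesenchymal transition were lower in each library for 6 of 6 at 20 CPM (median -1.33), against 36.6% of all genes described. They include Vim, Fn1 and Twist1 (-1.55), which stromal cells also express. Zeb1, under 20 CPM, had -1.37. Of 16 cell division genes at 20 CPM none was higher or lower in each library (median -0.65), against 12.6% and 36.6% of all genes described. Top2a, for example, was lower in members of 4 libraries and higher in vehicle 3 (28.5 against 12 CPM). Cdkn2a, a tumour suppressor gene induced by oncogenes, was over 2-fold lower in members in each library, at 169, 284, 220, 215 and 76.4 CPM against 811, 593, 556, 445 and 263 CPM.

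Members carried more RNA of the Hedgehog ligands Shh and Ihh than gastric-low cells, and little RNA of Hedgehog targets. Shh stood at 26.6, 24.6 and 19.0 CPM in members with vehicle and 45.9 and 9.74 CPM in IPI-926 2 and 3, against 2.03, 1.0, 1.70, 12.1 and 0.638 CPM in gastric-low cells, a median log2 ratio of 1.84. At least 1 UMI was found in 4.89% to 53.7% of members and at most 0.507% of immune cells of these libraries. Ihh, the second ligand, had a median log2 ratio of 0.84 and was higher in members in each library, and Dhh, the third, had -0.49. Of the 13 Hedgehog genes, 2 reached 20 CPM, Shh and Smo.

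The genes that release, receive and answer the signal were low. The ligand-processing genes Hhat and Disp1 had 194 and 537 UMIs in all members and Scube2, which aids release, had 4. The receptor Ptch1 stood at 7.96 to 13.0 CPM (median log2 ratio -0.44) and the drug target Smo at 9.04 to 15.5 CPM (-0.62). Of the effectors, Gli1 had 5 UMIs, Gli2 had 9 and Gli3 had 34, and the feedback gene Hhip had 0. Changes in these effector and feedback genes were not detectable at this depth.

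No gene passed the test for IPI-926 against vehicle in gastric-like cells. In edgeR's quasi-likelihood test on summed counts, 0 of 14305 genes had a Benjamini-Hochberg adjusted p under 0.05 (0%), 739 had an unadjusted p under 0.05, and the smallest adjusted p was 0.888. DESeq2 on the same sums called 115 genes, 71 higher and 44 lower, and limma-voom called 0. Without IPI-926 2, when IPI-926 3 alone stood for the treatment and was assumed to vary like the vehicle libraries, edgeR called 92 genes, 91 of them higher. Of all genes tested, 9.66% were higher in both IPI-926 libraries than in each vehicle library, and 9.89% were lower in both. The labels name separate tumours but give no further replication, so the p-values measure the spread between these tumours.

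The score genes chose the cells, so their values under treatment are a description with no test. Gkn1 stood at 3369, 4812 and 2083 scaled CPM (CPM after TMM scaling) with vehicle and at 428 and 553 in IPI-926 2 and 3, and the groups did not overlap. Its log2 fold change was -2.80, and those of Gkn2 (-4.18) and Tff1 (-1.70) also came without overlap, while Gkn3 (-1.13), Tff2 (-0.17), Muc6 (-0.09) and Epcam (0.31) overlapped. These sizes moved with the cells and libraries summed. In gland-led cells alone, an alternative chosen after seeing the data, Gkn1 had -1.79, Gkn2 -3.17 and Tff1 -0.91. Without cells with stromal UMIs the values were -1.84, -3.57 and -0.67. Without vehicle 2, which was mostly pit-led, Gkn2 had -2.81 and Tff1 -0.81, and without IPI-926 3 Gkn2 had -6.16. Among the 5 fitted libraries the pit-led share was lower in IPI-926 2 and 3 than in any vehicle library, while 2 of the 5 members of IPI-926 1 were pit-led.

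The genes of smallest p outside the score were mostly scarce. Mgp, a matrix calcification inhibitor, stood at 39.8, 78.6 and 118 scaled CPM with vehicle and 2.01 and 3.83 in IPI-926 2 and 3 (log2 fold change -4.83, and -3.41 without cells with stromal UMIs). Cxxc4, an inhibitor of WNT signalling (-4.07), the stress keratin Krt16 (-3.62) and the kallikrein Klk1 (-3.54) were under 21 scaled CPM in each library. Klk1 had -1.89 without cells with stromal UMIs, -2.0 at a score threshold of 1% and -5.12 in gland-led cells, and Krt16 ranged from -4.99 without cells with stromal UMIs to -2.87 without IPI-926 2. In the other direction, Cldn3, a tight junction claudin, stood at 118, 156 and 155 scaled CPM with vehicle and 393 and 404 in IPI-926 2 and 3 (1.48). Car8, a carbonic anhydrase-related protein, stood at 23.7, 17.1 and 13.2 against 111 and 84.2 scaled CPM (2.44), and C4bp (3.19), Htra3 (2.5) and Tmprss6 (3.69) were under 15. None of these 9 genes overlapped between the groups, each had an edgeR adjusted p of 0.888, and DESeq2 called all 9. They were picked for small p in the same libraries, so neither result is separate support. Over all genes tested, 9.66% were higher and 9.89% lower without overlap.

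**Figure D5:**
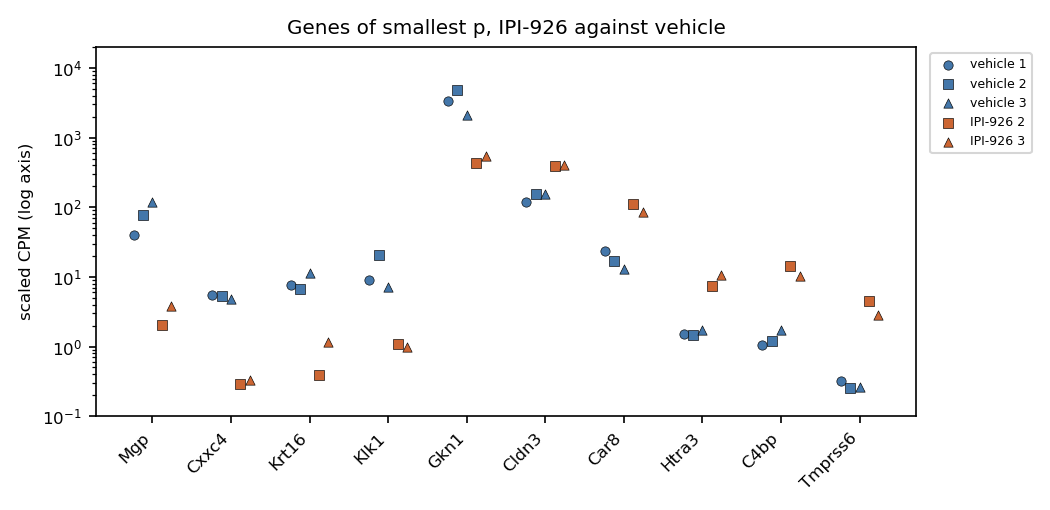
Scaled CPM (log axis) in gastric-like cells of the 5 fitted libraries for the 5 genes of smallest p in each direction, ordered by log2 fold change; Gkn1 is a score gene. Vehicle and IPI-926 points do not overlap for any of the 10 genes, which the choice by small p favours, and none passed the edgeR test.

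Gastric genes outside the score showed no called change either. Of 10 pit genes tested, 8 had a negative and 2 a positive fold, with a median log2 fold change of -0.64 against 0.00 over all genes tested, and 6 did not overlap, 2 higher and 4 lower (over all genes tested, 9.66% and 9.89%). Anxa10 stood at 229, 156 and 197 scaled CPM against 95.2 and 64.7 (-1.28; edgeR adjusted p = 0.917). Of 7 neck and gland genes, 6 had a higher fold (median 0.50). The lineage factors were split, 11 higher and 10 lower (median 0.16), with Pdx1 at -0.21 and Cdx2 at -0.13. Muc5ac had -0.68.

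Genes of the Hedgehog, WNT and VEGF pathways, which the study set out to examine, showed no called change. Of 7 Hedgehog genes tested, 3 were higher and 4 lower (median -0.19) and 0 were called. Shh had a log2 fold change of 0.16, with 44.1 scaled CPM in IPI-926 2 and 9.17 in IPI-926 3 on either side of the vehicle values of 20.6 to 27.5. Ihh stood at 8.84, 10.1 and 6.39 scaled CPM with vehicle and 18.2 and 13.3 in IPI-926 2 and 3, without overlap (0.90; edgeR adjusted p = 0.948). Ptch1, the standard feedback target, stood at 13.4, 7.86 and 11.4 against 11.6 and 10.8 scaled CPM (0.04 ± 0.30, SE). Of 15 WNT genes, 6 were higher and 9 lower; the ligand Wnt7b stood at 12, 27.6 and 18.3 against 46.0 and 37.2 scaled CPM (1.11; edgeR adjusted p = 0.948), and the target Axin2 had -0.62. Of 9 VEGF genes, 3 were higher and 6 lower, and Vegfa had 0.31.

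Interferon-inducible and antigen presentation genes were high in the members of 1 library, IPI-926 3. The 16 interferon genes summed to 196, 126 and 145 CPM with vehicle, 165 CPM in IPI-926 2 and 1408 CPM in IPI-926 3. For the 12 class I genes of the major histocompatibility complex the sums were 495, 620, 587, 588 and 5406 CPM in the same order, and for the 7 class II genes 67.8, 231, 154, 70.4 and 2921 CPM. IPI-926 2 lay among the vehicle libraries in each set. All 33 tested genes of the 3 lists had a positive log2 fold change, with medians of 2.73, 2.46 and 2.98, and none was called by edgeR. Gastric-low cells of IPI-926 3 were high too, with 1393, 5071 and 2195 CPM. So were its immune cells for interferon genes, with 2941 CPM against 369 to 526 in the other 4 libraries. Macrophage genes summed to 1108 CPM in members of IPI-926 3 and to 220 to 350 CPM in the other 4; their part in these values was not tested.

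Whether members answered IPI-926 differently from gastric-low cells was tested as the difference of the class differences within libraries (limma). Of 14173 genes 0 had an adjusted p under 0.05 (0%), 857 had an unadjusted p under 0.05, and the smallest adjusted p was 0.0832. The genes of smallest p were mucosal genes with a narrower gap between the classes in the IPI-926 libraries. For Agr2 the difference of log2 fold changes was -2.51 ± 0.26 (SE; limma adjusted p = 0.0840), with folds of 0.14 in members and 2.48 in gastric-low cells. For 2210407C18Rik it was -2.23, for Gsta1 -2.15, for Clca1 -2.99, for Aqp5 -1.38, for Fam3b -2.94, for Il18 -1.44 and for Lypd8 -3.20, each in the same direction. Without vehicle 2 the count was 2, both with a positive difference. No gastric-low change of these 8 genes passed the edgeR test.

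Marker genes of other cell types were checked in the members. As medians over cells, endocrine, endothelial, T and NK cell and red blood cell genes were at 0 CPM in each library. Acinar genes had medians of 232, 20.2 and 291 CPM with vehicle and 19.9 and 146 in IPI-926 2 and 3, against 15.4, 7.44, 110, 0 and 92.6 CPM in gastric-low cells. Of 9 acinar genes at 20 CPM, 5 were higher in members in each library (median log2 ratio 0.99), against 12.6% of all genes described. In members they summed to 240 to 7671 CPM, against 17.8 to 258 CPM in immune cells. The enzymes Ctrb1 and Prss2 led them, at 4574 and 1836 CPM in vehicle 3. Acinar genes had a median log2 fold change of -2.42 for IPI-926 against vehicle, 13 of 13 lower and 0 called. Macrophage genes had medians of 112 to 240 CPM in 4 libraries and 899 in IPI-926 3, and fibroblast genes 0 to 68.6 in 4 and 565 in IPI-926 3. Mitochondrial RNA was higher in members than in gastric-low cells of each of the 5 libraries, 6.71% against 4.66% in vehicle 1 and 4.93% against 4.65% in IPI-926 3 as medians. Their part in the class ratios was not tested.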

How the data were processed

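Each of 6 tumours gave 1 library of 10x Genomics Single Cell 3′ v3 chemistry, per the labels. In the deposited files the authors give whole-number UMI counts, unscaled, for each of 32285 genes and each barcode. Their headers name cellranger 6.1.2. The processing notes of the submitters give another version, Cell Ranger 2.1.1, with the genome mm10; the annotation is not given in the sources used here. Gene positions come from GENCODE vM21.

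The cell filter asked for 500 UMIs or more, 300 genes or more and a mitochondrial share of no more than 20%. A cell was epithelial with at least 10 UMIs of Epcam, Krt8, Krt18, Krt19, Cldn4 and Cldn7 together, more than 5 times those of Ptprc, Tyrobp and Laptm5, and under 3 UMIs of Upk3b and Nkain4. Immune cells had at least 5 UMIs of the 3 immune genes, over 5 times the epithelial sum. Doublets were not called; leaving out cells with stromal UMIs stood in for this. The members and gene lists were chosen with earlier results of these data known.

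Counts were summed per library and class with at least 20 cells; CPM are counts-per-million of those sums. IPI-926 was tested with edgeR 4.0.16 (TMM, filterByExpr, robust quasi-likelihood), the response difference with limma 3.58.1 (trend, robust, prior count 2), both adjusted over all genes tested with a threshold of 0.05, and shares by exact permutation over 20 assignments. DESeq2 1.42.0, limma-voom, other scalings, filters and thresholds were alternatives. Both fits were also run on simulated counts with 1 dispersion for all genes and no outlying library. Those settings differ from the real libraries, so the runs are not used as support for the absence of called genes. Genes named were the score genes and Epcam, for IPI-926 the 5 of smallest p each way (none was called), the 15 highest and 10 lowest class ratios over 2-fold in every library, 10 each way between pit-led and gland-led cells, the 8 of smallest p for the response difference, detected pit, gland, lineage and Hedgehog genes, up to 4 of highest CPM of other lists, and Shh, Ihh, Ptch1, Gli1, Vegfa, Wnt7b, Axin2, Muc5ac, Sox2, Cdx2 and Pdx1. Any other gene named, such as Mcpt1, Cdkn2a, Top2a, Cftr or the mast cell genes, was chosen after its values were seen. Shares of cells carry exact Clopper-Pearson 95% intervals for counting error only. A few genes and 1 allele are not reported here.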

Additional observations from a re-analysis of the deposited data

How the results depend on the processing

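The count of genes called for IPI-926 was 0 with edgeR under 11 alternatives that kept all 5 libraries (gland-led cells alone among them) and with limma-voom, 115 with DESeq2, and 0 to 92 when 1 library was left out. For the difference of response it was 2 with a score threshold of 0.25%, 1 with the stricter cell filter, 1 with equal cells per library, and 0 to 2 when 1 library was left out. The difference in the gastric-like share ranged from -20.47 to 6.58 percentage points when 1 library was left out, and was 6.58 without IPI-926 1; with the immune background taken off, chosen after seeing the data, it was -7.878, and -13.05 with a threshold of 1% (two-sided exact permutation p = 0.1). Without cells with stromal UMIs, and so without IPI-926 3, 70 genes were over 2-fold higher and 100 over 2-fold lower in members. Thinning each cell to 2000 UMIs gave 22 and 39, and a score threshold of 1% gave 23 and 51. Leaving out 1 library gave 32 to 75 and 55 to 107. The causes were not tested. Without scaling beyond totals, the median log2 fold change of all genes was 0.12. Of the 14 single genes followed through the alternatives, none changed direction, and 10 passed the threshold with DESeq2 only. Those 10 were picked for small p in the same libraries. The 14 include the score genes Gkn1, Gkn2 and Tff1, and the 10 include Gkn1. Values of these score genes are a description with no test, since they chose the cells. The difference of response without cells with stromal UMIs was not run, since IPI-926 3 then kept under 20 gastric-low cells. No paired analysis was possible because the labels give no pairing of mice between the groups. The depth limits genes of a few UMIs, such as Gli1, and 2 treated libraries limit every treatment result.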

Other observations

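Of 10 cytokine and chemokine genes at 20 CPM, 1 was higher and 4 were lower in members in each library, against 12.6% and 36.6% of all genes described. Il18, an epithelial cytokine, stood at 74.6, 33.5 and 72.4 CPM in members with vehicle and 48.7 and 65.7 CPM in IPI-926 2 and 3, higher than in gastric-low cells of each library (median log2 ratio 1.49). The neutrophil chemokine gene Cxcl1 (median log2 ratio -1.81) and the growth factor gene Csf2 (-2.01) were lower in members of each library. Ghrl, the ghrelin gene, gave 2224 UMIs in 3.53% of members of vehicle 1 and 2907 UMIs in 2.26% of members of vehicle 3, against 3 to 29 UMIs in the other 3 fitted libraries. These are descriptions of cells split on their own RNA, without a test.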
